A study of Mus musculus with 2 samples.

Results

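Binding of USF1 was examined at 9 genes of the B-cell surface and of B-cell receptor signalling: Ms4a1, Cd79a, Cd79b, Cd22, Cr2, Blnk, Btk, Syk and Lyn. They were chosen by name and function, with earlier results of these data known, and are 9 of 21268 protein-coding genes that could be placed with a strand. Each gene was searched for the summit, the point of strongest enrichment, of every deposited USF1 region within 5 kb of any of its annotated 5′ ends or inside the gene, and for distal summits up to 100 kb beyond it. The data are ChIP-seq peak lists from CH12.LX, an immortalised B-cell lymphoma line of the mouse strain B10.H-2aH-4bp/Wts, in 1 group of 2 biological replicates that were both precipitated with a USF1 antibody. The labels state no treatment, and with a single line and no other condition every comparison is between genes or between the replicates. Expression was not measured in these files, so the B-cell label could not be checked against marker RNA.

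The B-cell receptor is a membrane immunoglobulin held in a complex with the signalling chains Igα and Igβ, which Cd79a and Cd79b encode. After antigen binds, the kinase Lyn phosphorylates these chains, Syk docks on them, and Syk phosphorylates the adaptor Blnk, which brings Btk to its substrates. Cr2 encodes a complement receptor that lowers the threshold of activation, Cd22 encodes an inhibitory lectin that recruits a phosphatase, and Ms4a1 encodes the surface protein CD20. USF1 is a basic helix-loop-helix leucine zipper factor that binds E-boxes, above all the palindrome CACGTG, as a homodimer or with its relative USF2.

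The sequences under the summits that carry the results are given first. They come from the mm9 list and the NCBIM37 genome, read 5′ to 3′ on the strand of the gene among the 9 that each line names, with the E-box in capitals. Each is either the 101 bp window around the summit or, where the window reaches an annotated exon, 30 bases on the E-box nearest the summit. The first group shows the 2 strongest promoter sites, which differ in their core: Ms4a1 has CACGTG and Blnk has CACATG, here called the CA-centred E-box.

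Ms4a1 promoter, chr19:11340667-11340696 (- strand): ctaatttcctgtCACGTGgtgtcaatcaga
Blnk promoter, chr19:41068745-41068774 (- strand): gactccctggatCACATGacctcgtagaaa
Cd22 promoter, chr7:31665382-31665482 (- strand): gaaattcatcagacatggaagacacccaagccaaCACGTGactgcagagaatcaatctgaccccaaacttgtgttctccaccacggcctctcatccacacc

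The next group shows the 3 sites inside Syk, which share the extended core cCACATGa.

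Syk, 775 bp after a 5′ end, chr13:52679531-52679631 (+ strand): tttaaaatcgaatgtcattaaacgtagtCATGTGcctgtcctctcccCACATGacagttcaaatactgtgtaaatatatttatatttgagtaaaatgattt
Syk, 3687 bp after a 5′ end, chr13:52695859-52695959 (+ strand): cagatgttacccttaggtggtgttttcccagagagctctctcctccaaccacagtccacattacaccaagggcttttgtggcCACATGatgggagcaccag
Syk, 39409 bp after a 5′ end, chr13:52731581-52731681 (+ strand): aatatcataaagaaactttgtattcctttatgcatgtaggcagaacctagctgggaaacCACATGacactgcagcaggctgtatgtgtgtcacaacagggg

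The last group shows the strongest site upstream of Cd79b, the promoter of Hnrnph2 next to Btk, and the 3 sites upstream of Lyn, a gene with no summit of its own.

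Cd79b, 10317 bp upstream, chr11:106186343-106186443 (- strand): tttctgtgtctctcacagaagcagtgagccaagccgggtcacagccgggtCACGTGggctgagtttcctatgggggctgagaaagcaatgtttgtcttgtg
Hnrnph2 promoter, 18069 bp upstream of Btk, chrX:131135721-131135750 (- strand): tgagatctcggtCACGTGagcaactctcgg
Lyn, 49001 bp upstream, chr4:3556211-3556311 (+ strand): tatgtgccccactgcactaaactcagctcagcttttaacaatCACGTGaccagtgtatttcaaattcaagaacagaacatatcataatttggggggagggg
Lyn, 28463 bp upstream, chr4:3576749-3576849 (+ strand): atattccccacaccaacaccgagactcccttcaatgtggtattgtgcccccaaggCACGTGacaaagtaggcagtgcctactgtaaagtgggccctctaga
Lyn, 15433 bp upstream, chr4:3589779-3589879 (+ strand): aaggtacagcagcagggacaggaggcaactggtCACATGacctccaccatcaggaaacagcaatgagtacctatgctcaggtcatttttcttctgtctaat

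The authors' optimal mm10 list placed a USF1 summit within 1 kb of a 5′ end at 5 of the 9 genes (55.6%), namely Ms4a1, Cd79b, Cd22, Blnk and Syk. Over all 21268 genes, 2681 (12.6%) had one. Extending the search to 5 kb or the gene body added no further gene, so the count remained 5 of 9, where 4841 of all genes (22.8%) had such a summit. Cd79a, Cr2, Btk and Lyn had none. Distances are given from the annotated 5′ end nearest the summit, where a gene has several. In the more stringent conservative list Cd79b was lost from the wider count, which left 4 genes beside a background of 21.4%. Within 1 kb that list kept 3, Ms4a1, Cd22 and Blnk, beside 11.9% of all genes. The summit near the start of Syk was also lost there. The mm9 list, made separately by the authors, had a summit at the same 5 genes, where 26.1% of 22342 genes had one within 5 kb or inside. Since the genes are few and were picked with earlier results of these data known, these counts are set beside the background without a test.

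**Figure D1:**
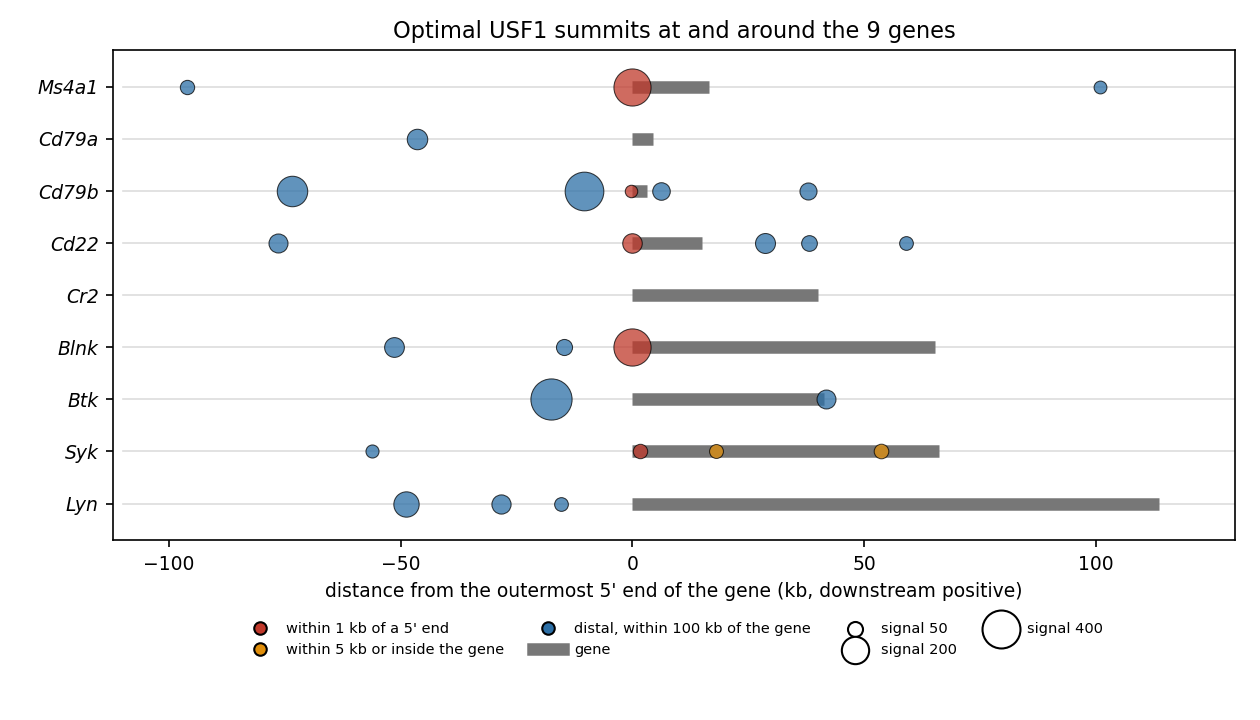
Position of every optimal mm10 summit at the 9 genes, in kb from the outermost 5′ end, with downstream positive. Grey bars are the genes, circle area rises with the authors' signal, and colour gives the class. Ms4a1 and Blnk carry large circles at their starts, the strongest circle near Btk lies 17.6 kb upstream of it, Lyn has 3 upstream circles, and Cr2 has none.

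The 5 bound promoters ranged from near the bottom to near the top of the list in signal, the authors' value for each region. No source used here gives its scale, so it is compared only within a list or between the replicates' own lists. Median signal at the strongest summit within 1 kb was 94.9 over the 5 genes and 130.8 over all 2681 bound genes. Ms4a1 and Blnk were well above the value over all genes, and Cd22, Syk and Cd79b were below it.

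Ms4a1 had its summit on chromosome 19 at 11266196 (mm10), 47 bp upstream of the 5′ end. Signal was 382 in the optimal list, 190.0 in replicate 1 and 195 in replicate 2. It was higher than at 92.0% of all optimal summits, and than at 79.8% of those within 1 kb of any gene's 5′ end. The replicates differed by 0.04 on the log2 scale (replicate 2 over replicate 1), where the median over the 8054 optimal regions found in both was 0.18 with an SD of 0.50. In the mm9 list the site had a signal of 769, which ranked 480 among 1747 promoter summits with CACGTG, whose median was 215.9. CACGTG was centred 1.5 bp from the summit. Its extended form, CCACGTGA (TCACGTGG on the other strand), is the most frequent at USF1 summits and made up 27.8% of the CACGTG copies nearest a summit. The window also held a CCAAT box, the letters CCAAT on either strand, which 20.3% of promoter summit windows held.

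Blnk, the adaptor, had an almost equal signal with a different site. Its summit, on chromosome 19 at 40994266 (mm10), lay 45 bp upstream of the 5′ end and had a signal of 384, higher than at 92.2% of optimal summits. Of those within 1 kb of any gene's 5′ end, 80.0% were lower. Replicate 1 gave 173 and replicate 2 gave 209, a log2 ratio of 0.27. The mm9 window held no CACGTG and 1 copy of TCACATGA, centred 9.5 bp from the summit, in what Gencode annotates as an untranslated exon of a longer Blnk transcript. The mm9 signal of 784 ranked 33 among 383 promoter summits with CACATG and no CACGTG, whose median was 76.4. It ranked 59 among all 3198 summits of that class. TCACATGA is the commonest form of the class, at 45.5% of its copies nearest a summit.

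In the mm10 promoter of Blnk from RefSeq (GRCm38.p6), the CACATG was centred 48 bp upstream of the start. The same promoter held the octamer ATTTGCAT, the site of the widely expressed factor OCT1 and of OCT2, which is enriched in B cells, centred 126 bp upstream. Of 32851 RefSeq promoters of that length, 250 bp before to 50 bp after a start, 14.2% held CACATG, 7.15% held CACGTG and 1.74% held the octamer, each searched on both strands. These matches are letters in a window, and binding of other factors was not measured.

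Cd22 was bound at an intermediate level. The summit on chromosome 7 at 30880413 (mm10) lay 71 bp upstream of a 5′ end, with a signal of 94.9, higher than at 60.7% of optimal summits. Of those within 1 kb of any gene's 5′ end, 44.1% were lower. Replicate 1 gave 42.0 and replicate 2 gave 52.3, and the log2 ratio was 0.32. In mm9 the signal was 116, which ranked 1101 among 1747 promoter summits with CACGTG, whose median was 215.9. Its E-box, ACACGTGA, was centred 13.5 bp from the summit. That form ranked 4 among the extended forms, at 10% of copies. The gene has another start downstream whose RefSeq promoter held a CACATG centred 17 bp before it. No optimal summit lay within 1 kb of that start.

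Cd79b and Syk had weak promoter regions that rested more on replicate 1. The Cd79b summit, on chromosome 11 at 106314756 (mm10), was 194 bp upstream of the 5′ end and had a signal of 29.8, higher than at 2.59% of optimal summits. Signal was 21.5 in replicate 1 and 10.6 in replicate 2, a log2 ratio of -1.02. With the optimal regions split into 4 equal groups by signal, that ratio had a median of 0.13 and an SD of 0.65 in the weakest group, against an SD of 0.24 in the strongest. The region was not in the conservative list, and it was not among the 8108 strongest regions of replicate 2, the number the optimal list holds. The mm9 summit had a signal of 47.0, in an untranslated exon of Cd79b, with neither E-box within 50 bp.

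Syk had 3 regions, all inside the gene and all weak. The summit 733 bp after a 5′ end, on chromosome 13 at 52584170 (mm10), had a signal of 44.7, with 27.1 in replicate 1 and 17.0 in replicate 2. The next, 3664 bp after a 5′ end, had a signal of 40.7, with 15.7 and 23.7. The deepest, 39371 bp after a 5′ end, had a signal of 46.2, with 22.5 and 23.1. Replicate 1 was the higher at the first region and replicate 2 at the next, and they were level at the deepest. The first region was absent from the conservative list, and it falls outside the 1 kb limit when only the outermost of the 3 annotated starts is used. In mm9 all 3 summits were intronic, at signals of 47.8, 37.4 and 57.3. Each had CCACATGA as its nearest E-box, a form that made up 6.8% of the copies of that class. The first window held 2 CA-centred copies.

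**Figure D2:**
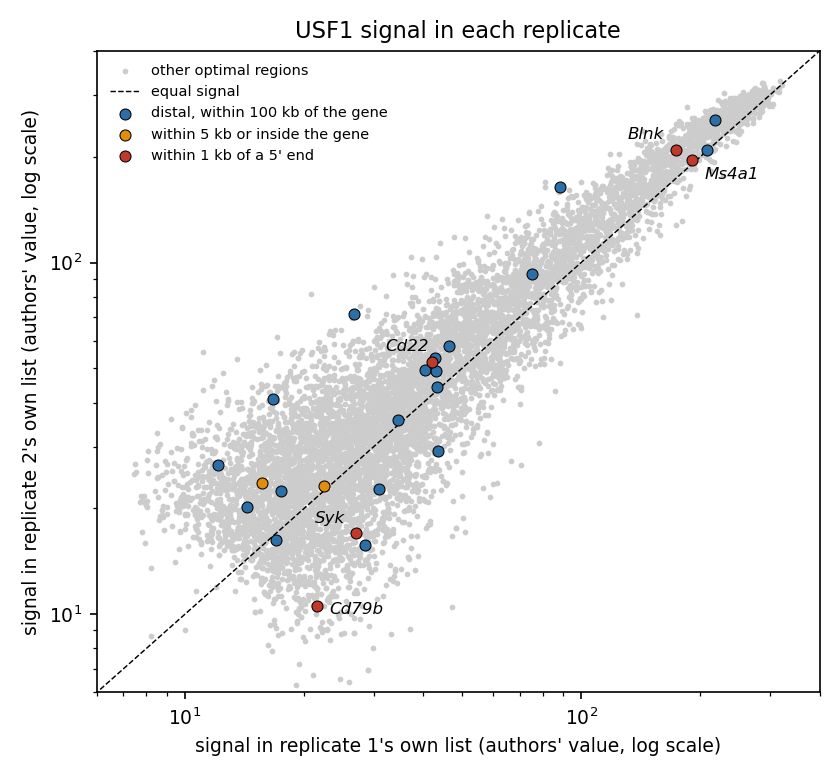
Signal of each optimal region in replicate 1's own list against that in replicate 2's own list, both on log scales. Grey points are optimal regions found in both, coloured points are those at or around the 9 genes, and the dashed line marks equal values. Ms4a1 and Blnk lie high and near the line, while Cd79b (21.5 and 10.6) and the first Syk region (27.1 and 17.0) lie below it.

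All 7 summits within 5 kb of a start or inside the genes overlapped a region in each replicate's own list, as did 99.3% of the 8108 optimal regions. The optimal list was derived from those lists, so the overlap is partly built in. The replicates were close at Ms4a1, Blnk, Cd22 and the deepest Syk region, which is weak, and farther apart at Cd79b and at the first 2 Syk regions.

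Of the 4 genes without an optimal summit, Cd79a had the strongest region of the relaxed list within 5 kb of a start, but that region lay past the gene's end. The authors describe this list as holding peaks and background together. It had a region 192 bp after the Cd79a start with a signal of 9.04, and neither replicate's own list had one within 1 kb. A stronger one of 17.3 lay 4729 bp after the start, beyond the end of the gene, which is 4.36 kb long. The latter was higher than 94.3% of the 300000 relaxed regions, and replicates 1 and 2 gave 10.2 and 11.1. At Cr2 the strongest relaxed value within 5 kb of a start was 7.07, and at Lyn it was 8.67. Neither gene had a region there in either replicate's own list. Btk had no relaxed region within 1 kb and one of 6.99 at 2227 bp after a start, with 8.09 in replicate 2 and none in replicate 1. For comparison, the relaxed list gave 29.8 at Cd79b, the weakest of the bound promoters.

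Distal summits were frequent around the 9 genes and around genes in general. At least 1 optimal summit lay within 100 kb at 8 of the 9 (88.9%), all but Cr2, where 57.1% of all genes had one. There were 19 such summits, each found in both replicates, as were 99.3% of all optimal regions. Of the 19, 15 were also in the conservative list, which holds 7356 summits where the optimal list holds 8108. Median signal of the 19 was 88.5, from 32.4 to 474. In the whole optimal list, 5568 of the 8108 summits lay beyond 1 kb of any 5′ end, with a median of 64.0. Around the 9 genes 12 of the 19 did, with a median of 82.8, and this difference was not tested. The other 7 lay within 1 kb of another gene's start. The nearest gene is here the one with the closest annotated 5′ end, even where the summit lies inside another gene. A gene of the 9 was the nearest in this sense for 5 of the 19, and no share over all genes is given for that count. Which gene a distal site acts on was not measured.

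Of the antigen receptor chains, Cd79a had 1 distal summit and Cd79b had 4, as many as Cd22. A summit 10511 bp upstream of Cd79b, its nearest gene, lay on chromosome 11 at 106325073 (mm10). It had a signal of 416, with 208 in replicate 1 and 209 in replicate 2. It was above 93.2% of optimal summits, and far above the Cd79b promoter itself at 29.8. In mm9 the site had a signal of 1030 in an intron of Scn4a, a muscle sodium channel gene, with CCACGTGA centred 2.5 bp from the summit. A summit 73562 bp upstream stood at the start of Icam2, which encodes an adhesion molecule, with a signal of 253. It differed between replicates, at 88.5 and 164, a log2 ratio of 0.89. Downstream, a summit at 6159 bp had a signal of 74.1, and the nearest mm10 5′ end was that of the growth hormone gene Gh. In mm9 the nearest 5′ end to this site was that of Cd79b, at 6126 bp. Another downstream summit, with a signal of 69.0, stood at the start of Tcam1. Around Cd79a the single distal summit, 46390 bp upstream and nearest to Lypd4, had a signal of 106, with 46.5 and 57.8 in replicates 1 and 2.

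Of the kinases, Btk lay between 2 bound promoters of other genes. The summit 17582 bp upstream (chromosome X, 134601210, mm10), 31 bp after the start of the RNA-binding protein gene Hnrnph2, had a signal of 474, the highest around any of the 9 genes. Replicate 1 gave 218 and replicate 2 gave 253. Its mm9 window, with a signal of 1597, held 2 copies of CACGTG, the nearer in the palindrome TCACGTGA. The other summit lay 446 bp beyond the end of Btk, 218 bp before the start of the mitochondrial import gene Timm8a1. It had a signal of 88.5, with 43.2 and 44.4 in the replicates.

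Lyn differed from Btk in having its distal sites in no other gene's promoter. Its 3 summits lay 48954, 28416 and 15388 bp upstream on chromosome 4, between genes, and Lyn was the nearest gene to each. Signal was 170 at the farthest, with 75.3 and 92.7 in replicates 1 and 2. It was 91.4 at the middle one, with 42.9 and 49.2, and 39.4 at the closest, with 17.5 and 22.4. Replicate 2 was higher at each, by 0.30, 0.20 and 0.36 on the log2 scale, near the median of all optimal regions. The mm9 windows held TCACGTGA, GCACGTGA and TCACATGA in the same order, at signals of 232, 102 and 49.4. Syk had 1 distal summit, 56125 bp upstream near Diras2, with a signal of 34.2.

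Among the surface proteins and the adaptor, the distal sites were of middling or low signal. Around Cd22 the summits lay 27395, 36837 and 57794 bp downstream, toward the fatty acid receptor genes Ffar3 and Ffar2, and 76552 bp upstream. The one at 57794 bp was 42 bp before the start of Ffar2. Its signal was 39.4, with 12.1 and 26.5 in the replicates, and it was not in the conservative list. The one at 27395 bp had a signal of 99.99 but differed most between replicates of all 19, at 26.8 and 71.4, a log2 ratio of 1.41. The next to strongest of the 4 groups by signal, where it falls, had a median ratio of 0.22 and an SD of 0.44. The upstream one was the promoter of Usf2, which encodes the partner of USF1, with a signal of 89.4. Ms4a1 had 2 weak distal summits, one of 32.4 at the start of Ms4a19 and one of 44.0 toward Ms4a4a, both relatives in the same gene cluster. Blnk had one of 59.6 at 14688 bp upstream, with 16.7 and 40.8 in the replicates, and one of 97.6 at 51341 bp upstream, toward Dntt, the gene of terminal deoxynucleotidyl transferase. In mm9 the nearer of these held TCACATGG and the PU.1 string GAGGAAGT, which 1.84% of all summit windows held.

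The E-box under the 7 mm9 summits in and beside the genes was CACATG at more of them than CACGTG, with 3 of the CACATG sites in Syk alone. The palindrome CACGTG lay within 50 bp of the summit at 2 (Ms4a1 and Cd22), CACATG without CACGTG at 4 (Blnk and the 3 of Syk), and neither at 1 (Cd79b). Over all 10624 mm9 summits, 53.3% had CACGTG and 30.1% had CACATG alone. Among the 5 promoter summits the split was 2, 2 and 1, where all 3081 promoter summits had 56.7%, 12.4% and 30.9%. Of the 26 distal mm9 summits around the genes, 14 had CACGTG, 8 had CACATG alone and 4 had neither, and all 7543 distal summits of the list had 51.8%, 37.3% and 10.8%. With so few sites the counts are a description. TCACATGA was the nearest form at 6 of the 12 CA-centred summits, 4 of them around Cd22, and CCACGTGA at 4 of the 15 CACGTG summits whose flanking bases lay in the window.

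**Figure D3:**
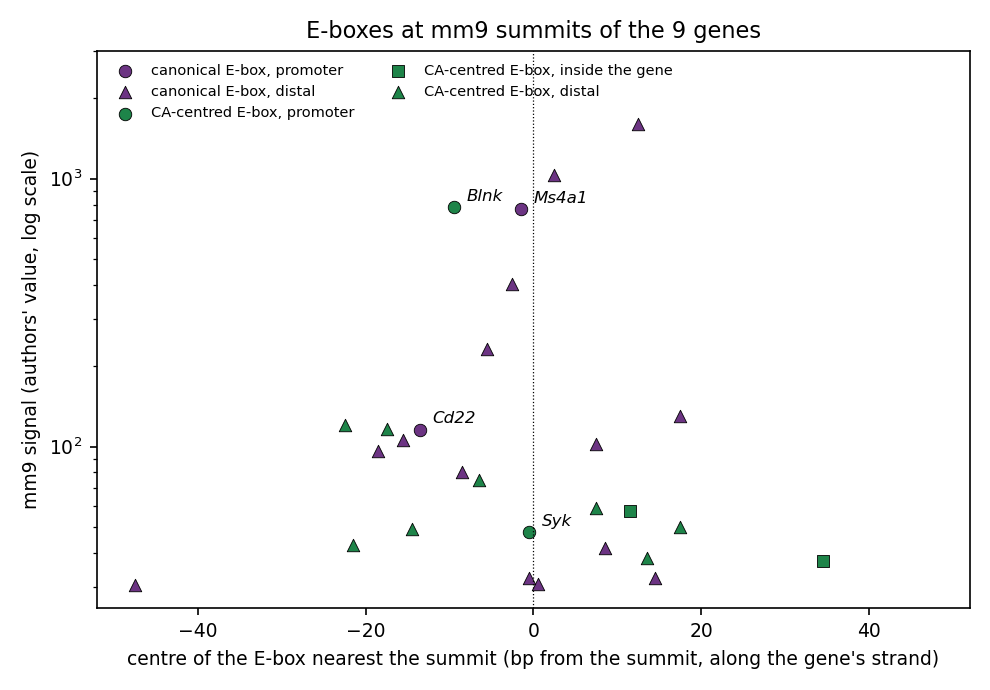
Offset of the nearest E-box from each mm9 summit around the 9 genes, in bp along the gene's strand, against the authors' mm9 signal on a log scale. Purple points have CACGTG and green points CACATG alone, and summits with neither are not drawn. Blnk (784, CACATG) and Ms4a1 (769, CACGTG) stand at the same height, and the other CA-centred points lie at lower signal.

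Promoter matches and binding did not map onto each other at every gene. In the mm9 window from 250 bp before to 50 bp after any annotated start, CACGTG was found at Ms4a1 and Cd22, both bound. CACATG was found at Cd22, Cr2 and Blnk, of which Cr2 had no summit. The RefSeq promoter of Cr2 in mm10 held neither E-box. Cd79b and Syk were bound with neither E-box in the mm9 window, and Cd79a, Btk and Lyn had neither and were unbound. Over all 22342 Gencode genes, 10.7% held CACGTG and 18.3% held CACATG. A summit lay within 1 kb at 51.7% of the genes with CACGTG, 12.3% of those with CACATG alone and 9.24% of those with neither. The octamer was found at Cd79b, Blnk and Lyn, where 2.49% of all genes held it.

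Of the 5 bound promoters, 4 lay in deciles of CpG content where few genes had a USF1 summit, and that of Syk lay in a decile where many had one. CpG observed over expected, measured within 500 bp of the start, put Ms4a1 and Cd79b in decile 2 of all genes and Cd22 and Blnk in decile 3. A summit within 1 kb was present at 1.16% of the genes of decile 2 and at 3.8% of those of decile 3. Syk and Lyn were in decile 8, where 23.6% were bound, and of these Syk was bound. The Syk summit, 775 bp after a 5′ end, lay outside the stretch measured, and its own 101 bp window was 30.7% GC. Btk was in decile 3 and Cd79a and Cr2 in decile 4, where 5.73% were bound, and these 3 were unbound. In deciles 1 to 5, a summit was present at 22.8% of 711 genes with CACGTG and at 5.89% of 2224 with CACATG alone. These deciles held 541 bound genes with a median mm9 signal of 89.5, among which Blnk ranked 72, Ms4a1 74, Cd22 237 and Cd79b 418.

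**Figure D4:**
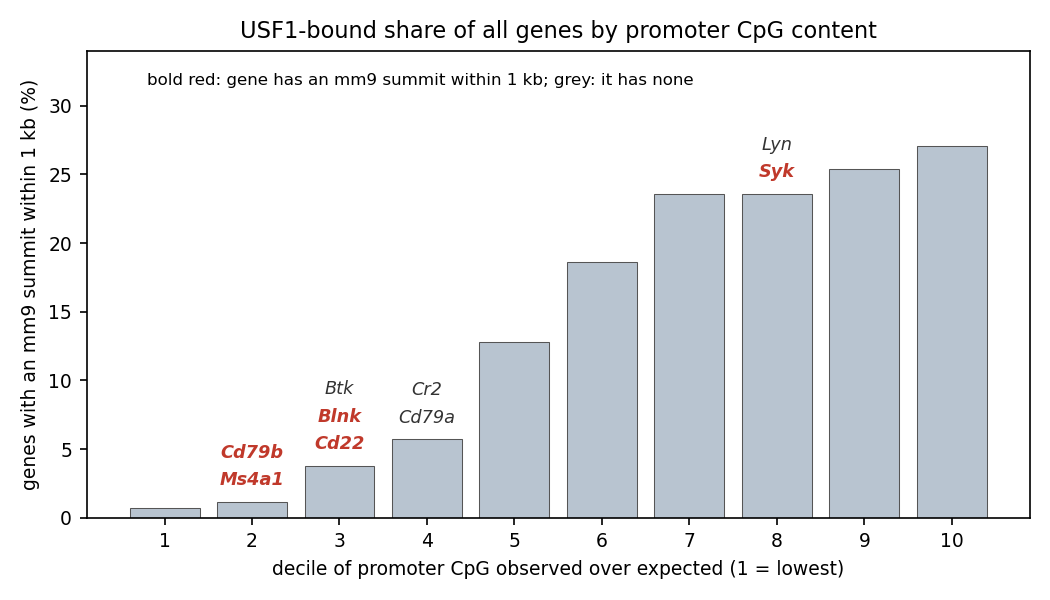
Share of all Gencode genes with an mm9 summit within 1 kb of a start (bars, in %), by decile of promoter CpG observed over expected. Gene names mark the decile of each of the 9, in bold red where the gene has such a summit. Ms4a1, Cd79b, Cd22 and Blnk stand over bars of 1.16% and 3.8%.

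Gene length touches any count that includes the gene body, and the 9 genes have a median length of 40.1 kb against 17.5 kb over all genes. Among genes within 1.5-fold of the length of Syk, 32.2% had an optimal summit within 5 kb or inside, and the shares were 32.1% for Blnk, 37.2% for Lyn, 21.5% for Ms4a1, 21.1% for Cd22 and 16.4% for Cd79b. Its part in the counts was not tested. In the optimal list, every bound gene outside Syk had its summit within 1 kb of a start and none inside the gene. In mm9 the summits of Cd79b and Blnk lay inside the annotated genes, in untranslated exons.

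The rest of the pathway was bound mostly away from gene starts. Of 28 other genes that carry the receptor signal forward, 6 (21.4%) had an optimal summit within 1 kb and 20 (71.4%) within 5 kb or inside, beside backgrounds of 12.6% and 22.8%. Their median length of 75.6 kb was the highest of the lists, and its part in the second share was not tested. Plcg2, the phospholipase that Btk activates, had a promoter summit 21 bp before its start with a signal of 398, at 178 and 223 in replicates 1 and 2. Hcls1, an actin-binding substrate of Syk and Lyn, had 290.0. The other 4 were weaker, namely the kinase subunit gene Pik3cd at 65.2, the adaptor Grb2 at 58.9, the exchange factor Vav2 at 51.1 and the calcium channel gene Itpr2 at 38.8. Of those bound farther away, the strongest were the transcription factor gene Nfatc1 at 320.3, the kinase Prkcb at 313 and the exchange factor Vav1 at 299.

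Of 15 inhibitory genes, with a median length of 27 kb, 1 (6.67%) had a promoter summit and 8 (53.3%) had one within 5 kb or inside. The shares over all genes were 12.6% and 22.8%. The promoter was that of Dok3, an adaptor, at 199. Csk, which inactivates Lyn by phosphorylation, had the strongest, at 402 and 2365 bp before its start. Ptpn6, the phosphatase that Cd22 recruits, had 333 in its body, and Inpp5d, a lipid phosphatase, had 166.

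Genes of the T-cell receptor also had summits. Of 20 counterparts from T cells, with a median length of 22.3 kb, 3 (15%) had a promoter summit, near the 12.6% of all genes. Within 5 kb or inside, 11 (55%) had one, beside 22.8% of all genes. Cd2 had 106, Cd28 60.7 and Cd3d 33.5 at their promoters, and Cd3g shared the Cd3d region. Farther from starts, Sh2d2a had 271 and Lcp2, the T-cell relative of Blnk, had 166. Within 5 kb or inside, the 55% of T-cell genes stood beside 55.6% of the 9 genes, while within 1 kb the shares were 15% and 55.6%. A distal summit was present at 67.9% of the forward genes, 80% of the inhibitory and 75% of the T-cell genes, beside 57.1% of all genes.

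**Figure D5:**
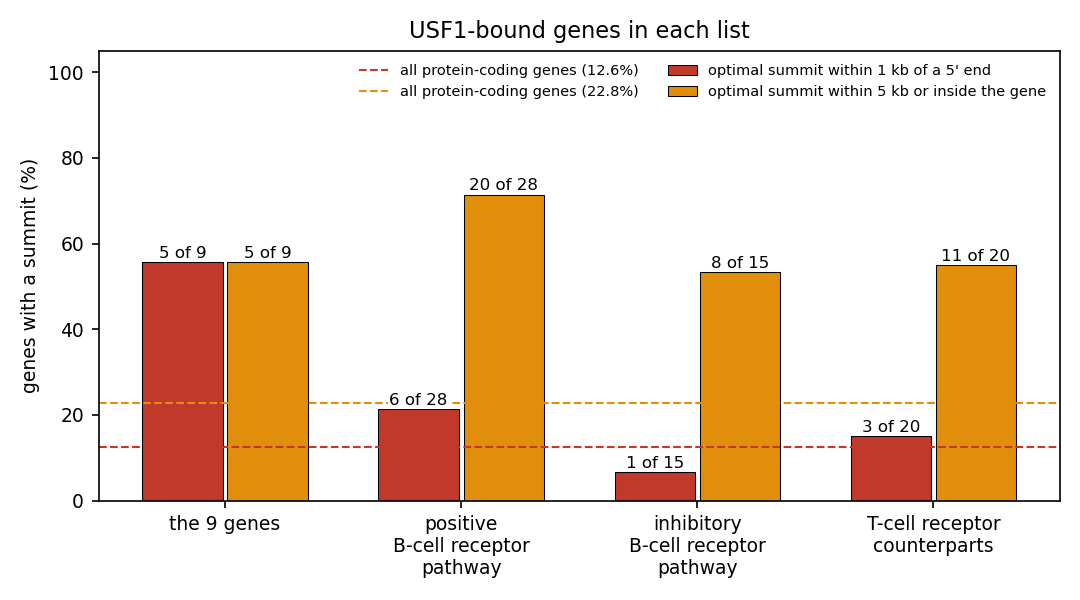
Share of genes with an optimal USF1 summit, in %, for the 9 genes and 3 other lists, within 1 kb of a 5′ end (red) and within 5 kb or inside the gene (orange). Dashed lines mark the shares over all protein-coding genes, 12.6% and 22.8%. The wider share is above its line in every list shown, and the promoter share is highest in the 9 genes, at 5 of 9.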

How the data were processed

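USF1 ChIP-seq peak lists of CH12.LX, 2 biological replicates, were used as the authors deposited them. Per the deposited readme files, relaxed lists were made per replicate and from both together in mm10, optimal and conservative lists were thresholded from these by IDR (a rank comparison between lists), and an mm9 list came from both replicates' mm9 alignments. Aligner, peak caller and thresholds: not given in the sources used here. Control libraries were not used here. Read depth is unknown; replicates 1 and 2 had 25978 and 44551 regions. The deposited signal (column 7) was compared only within a list or between the replicates' own lists. Summits were the region start plus the deposited offset in column 10. Coordinates are 1-based and none was converted.

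The mm10 genes were RefSeq GRCm38.p6. Strand came from the promoter table for 17274 genes and from Gencode vM1 by name for 3994, together 98.3% of 21631. RefSeq promoters matched 6 of the 9 genes. Sequences and mm9 genes were NCBIM37 and Gencode vM1, where Syk is listed as Sykb. Windows were 50 bp on each side of the summit, searched on both strands, and regions were matched at an overlap of at least 1 bp. An 8 bp form was counted together with its reverse complement. Python 3.11.15 with pandas 2.3.3, numpy 2.4.6 and pysam 0.24.0 was used, and assignment of summits was tested on simulated data. No significance test was made.

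The 9 genes and the other lists were chosen with earlier results of these data known. Named beside the 9 genes are, from each list, every gene with an optimal summit within 1 kb and the 3 strongest others, and the nearest gene of each distal summit described. A gene that this rule would name is not reported here. Alternatives were the conservative and mm9 lists, each replicate alone, a signal limit, and other windows.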

Additional observations from a re-analysis of the deposited data

How the results depend on the processing

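The count of genes with an optimal summit within 1 kb of a start was 5, beside 12.6% of all genes. It fell to 3 in the conservative list (11.9% of all genes) and to 3 with signal at or above the median of the list (8.48%). It was 3 without replicate 1 (13%) and 5 without replicate 2 (12.6%). Cd79b and Syk were the genes lost in the conservative list, at the signal limit and without replicate 1. The wider count, also 5 (22.8% of all genes), fell to 3 with signal at or above the median (14.1%). It was 4 or 5 under the other alternatives, where 21.2% to 26.1% of all genes had a summit. Of the 19 distal summits, 11 had signal at or above the median, and for 5 the gene was the nearest one. Using the outermost start alone, chosen after seeing the data, gave 4 genes within 1 kb (11.3% of all genes) and 5 in the wider window (22.7%). CACGTG was found at 2 summits under each of 3 other settings. No result reversed. No paired analysis was possible because there is 1 group. Depth is unknown, so a gene without a summit is one where none was detected at this depth.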
